A study of Mus musculus with 15 samples.

Results

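The SMAD and Id family was taken as 10 genes chosen by name, *Smad1* to *Smad7* and *Id1* to *Id3*, of 20089 genes listed in an RNA-seq series on macrophages grown from mouse bone marrow (BMDMs). All 10 were among the 11743 genes that passed the filter on low values, set at an average of 0.1 FPKM over the samples. FPKM, fragments per kilobase of transcript at a fixed depth, scales a gene's fragment count by its length and by the depth of the library. The family was selected on measured values: *Smad6* and *Smad7* were already known to stand out after 4 h of RANKL when the genes were chosen. The levels at 4 h are therefore given as a description with no test, and tests are given at 3 d.

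SMAD proteins carry signals of the TGF-beta superfamily from the cell surface to the nucleus. Receptors for bone morphogenetic proteins (BMPs) phosphorylate SMAD1 and SMAD5, receptors for TGF-beta and activin phosphorylate SMAD2 and SMAD3, and both kinds join the common partner SMAD4 to bind DNA. SMAD6 and SMAD7 are inhibitory SMADs that block the receptors or the partner, and their genes are themselves switched on by the pathway. The Id genes are classical targets of BMP signalling. Their products lack a DNA-binding region and hold E proteins, a class of helix-loop-helix transcription factors, away from DNA. RANKL, the cytokine that turns macrophage precursors into bone-resorbing osteoclasts, is known to act beside TGF-beta and BMP signals in these cells, while LPS, a bacterial cell wall component, drives inflammatory activation.

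The cells came from wild-type C57BL/6 mice and were grown with the macrophage growth factor M-CSF for 3 days, per the series description. There were 5 groups of 3 samples: control cells with M-CSF alone, and cells given M-CSF with RANKL or with LPS for 4 h or 3 d (the study writes 72 h). Mouse age and sex were not given in the labels, and nothing said whether replicates were separate animals or cultures, so p-values measure only the spread between these samples. No group had M-CSF alone for the further 3 d, so stimulus and time in culture cannot be told apart in the comparisons of 3 d samples with control.

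Each sample held 18306184 to 20330207 fragments on listed genes, recovered from the steps of the FPKM values. Macrophage markers were present throughout, with 8 of 8 above 1 FPKM in every sample, and 9 of 10 osteoclast markers were higher in RANKL 3 d and 8 of 11 LPS response genes in LPS 3 d than in control. Granulocyte markers summed to 7789 to 23832 FPKM in control, to 1780 to 7190 FPKM in RANKL 3 d and to 151 to 1803 FPKM in LPS 3 d. LPS 3 d replicate 3 stood apart. It differed from the other LPS 3 d samples by 0.650 and 0.736 (root mean square, log2 scale) against 0.339 between those, and held 1803 FPKM of granulocyte and 773 FPKM of stromal markers where the others held 151 and 185 FPKM, and 211 and 249 FPKM. Values without it are given for the members called at 3 d in a comparison with LPS 3 d, and where a call changed. In bulk samples, fewer cells of a type and less RNA per cell cannot be told apart.

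Promoter sequences were looked up in a RefSeq-based table (GRCm38.p6) that matched 6 of the 10 members, all but *Id1*, *Smad2*, *Smad4* and *Smad7*. The 3 shown belong to the matched members whose RANKL 4 h samples all lay above control. Each runs 5′ to 3′ from 250 bases before the transcription start to 30 bases after it, with capitals marking matches on either strand to letters known from SMAD binding: the palindrome GTCTAGAC, the GC-rich GGCGCC and the short CAGAC or its reverse complement GTCTG. *Smad6* (chr9:64022030-64022309, minus strand), *Id2* (chr12:25096063-25096342, minus strand) and *Id3* (chr4:136143572-136143851, plus strand) read:
Smad6: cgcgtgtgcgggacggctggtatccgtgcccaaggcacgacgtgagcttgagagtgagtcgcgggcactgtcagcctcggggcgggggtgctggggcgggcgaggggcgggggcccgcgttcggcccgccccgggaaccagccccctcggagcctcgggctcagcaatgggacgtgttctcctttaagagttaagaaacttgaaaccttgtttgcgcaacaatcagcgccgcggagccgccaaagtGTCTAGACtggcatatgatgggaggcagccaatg
Id2: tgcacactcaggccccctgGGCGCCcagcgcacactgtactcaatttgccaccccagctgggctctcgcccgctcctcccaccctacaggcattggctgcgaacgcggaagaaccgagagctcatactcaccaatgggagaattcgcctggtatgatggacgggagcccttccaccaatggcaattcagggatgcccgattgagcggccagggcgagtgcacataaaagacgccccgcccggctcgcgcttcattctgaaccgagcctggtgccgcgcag
Id3: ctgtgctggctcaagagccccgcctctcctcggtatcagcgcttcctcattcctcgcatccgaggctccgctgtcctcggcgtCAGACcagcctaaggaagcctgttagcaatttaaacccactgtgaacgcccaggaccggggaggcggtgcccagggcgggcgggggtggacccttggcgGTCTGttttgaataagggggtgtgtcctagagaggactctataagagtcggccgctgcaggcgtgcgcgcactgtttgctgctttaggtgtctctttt

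In *Smad6* the palindrome lay across the annotated start, from 4 bases before it to 4 bases past it, and 63 of 32851 promoters (0.192%) held those letters in a window of the same length. In *Id2* GGCGCC began 231 bases before the start, and 3597 promoters (10.9%) held it. In *Id3* CAGAC began 167 bases and GTCTG 68 bases before the start, letters found in 46.8% of promoters. These starts are those of the RefSeq-based table. In GENCODE M21 (GRCm38) *Id2* (chr12:25093799-25097140) and *Id3* (chr4:136143497-136145755) begin further upstream, so both windows lie inside the genes as annotated there. Among the matched members not shown, all of which overlapped control at 4 h of RANKL, *Smad1* and *Smad3* held none of these letters. *Smad5* had several windows, from different annotated starts, and held GGCGCC and CAGAC in different ones, whereas the shares above count single windows. The promoters shown were chosen by the 4 h values, so no link of the letters to those values is read. A match describes letters in a window and not a bound site.

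At 4 h of RANKL, *Smad6*, *Smad7*, *Id1*, *Id2* and *Id3* lay wholly above control, all 3 samples above all 3, and none lay wholly below, where 6.05% of tested genes lay wholly above and 4.71% wholly below. This is the contrast the genes were chosen with, so the counts are not a result. At 4 h of LPS, *Id3* lay wholly above control and *Smad1*, *Smad3* and *Smad5* wholly below, against 10.6% of genes above and 56.2% below. The median tested gene was 0.52 lower on the log2 scale in LPS 4 h than in control, and when each sample was centred on its median gene 5 members lay above and *Smad1* turned from 0.31 lower to 0.25 higher.

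At 3 d a member was called when its fold exceeded 1.5 or fell below 0.66 with an unadjusted p under 0.05 in limma, the thresholds of the study. RANKL 3 d against control called *Smad3* higher and *Id1* lower, 1 member in each direction, against 20.2% of genes higher and 9.04% lower. LPS 3 d against control called *Smad3*, *Smad6*, *Smad7* and *Id3* higher and no member lower, against 14.9% higher and 16.1% lower. RANKL 3 d against LPS 3 d called all 5 inhibitory SMAD and Id genes lower in RANKL and no member higher, against 13.8% of genes lower and 25.1% higher. With samples centred on the median gene, the share of called genes that were higher was 47.1% in RANKL 3 d against control, beside 69.0% uncentred, and 53.1% in RANKL 3 d against LPS 3 d, beside 64.6%. The members' median log2 difference was 0.36 in RANKL 3 d, 0.53 in LPS 3 d and -0.54 between them, beside 0.16, 0.08 and 0.11 over all tested genes. At 4 h it was 0.90 for RANKL and -0.0038 for LPS, beside 0.0016 and -0.52. The genes were chosen with the 4 h values known, so the 4 h medians are no result.

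**Figure D1:**
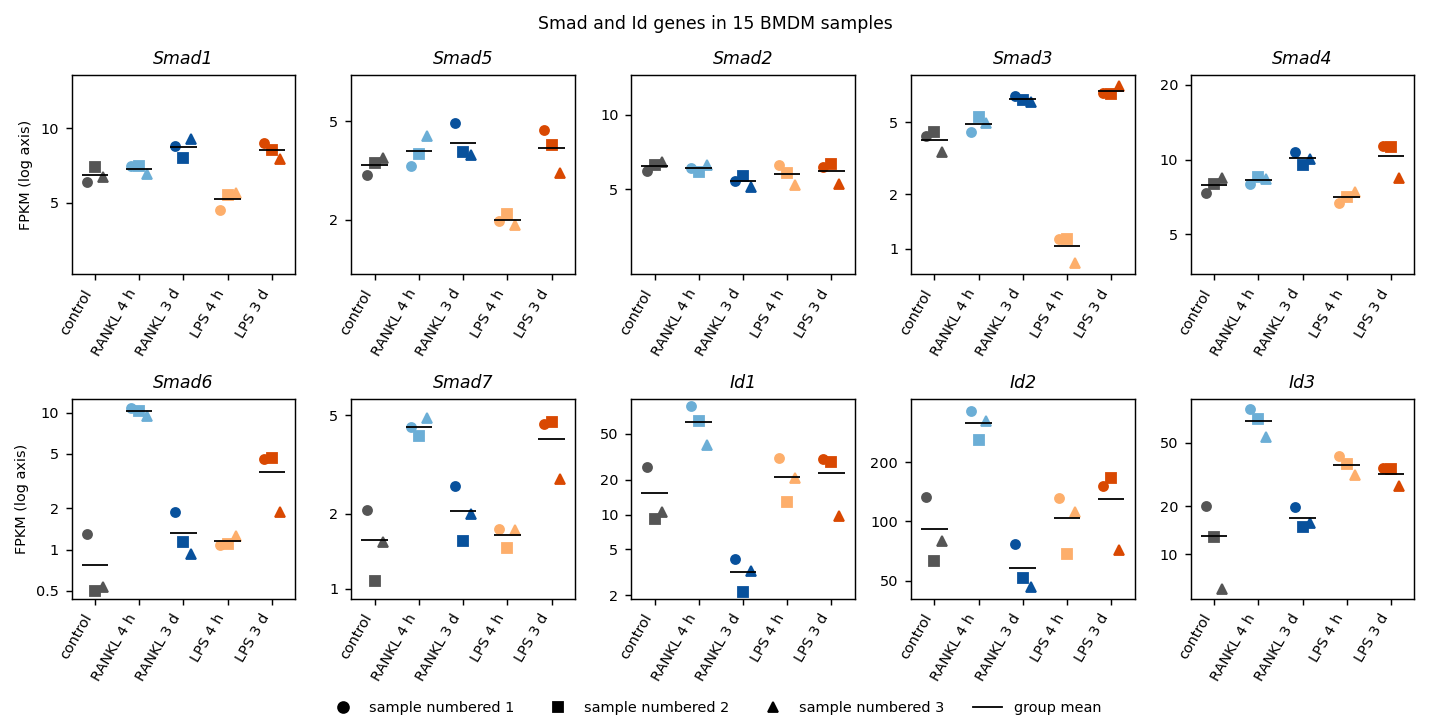
FPKM of the 10 genes in every sample, 1 panel a gene, on a log axis. Points are samples, shaped by replicate number, and bars are group means of 3; *Smad6*, *Smad7*, *Id1*, *Id2* and *Id3* are highest in RANKL 4 h, and *Smad3* is lowest in LPS 4 h.

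*Smad6*, whose product preferentially blocks BMP receptor signalling, had the largest rise of the family in RANKL 4 h. It was at 1.29, 0.501 and 0.533 FPKM in control samples 1 to 3 and at 10.9, 10.4 and 9.40 FPKM in RANKL 4 h. In LPS 4 h it was at 1.07, 1.10 and 1.26 FPKM, in RANKL 3 d at 1.89, 1.14 and 0.925 FPKM, and in LPS 3 d at 4.60, 4.63 and 1.87 FPKM. The 3 RANKL 4 h samples were alike and above every other sample, LPS 4 h lay within the control range, and 2 of the 3 LPS 3 d samples formed the next highest level. Control values rested on 32 to 83 fragments and RANKL 4 h values on 571 to 673, so the lower levels carry the larger counting error.

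The mean of *Smad6* in RANKL 4 h was 13.2-fold that in control, and the same-numbered samples gave 8.44-fold, 20.7-fold and 17.6-fold. Control replicate 1 was the highest control sample and gave the smallest of these. From 4 h to 3 d of RANKL the mean fell from 10.2 to 1.32 FPKM, a 7.74-fold difference, while in LPS it went from 1.14 to 3.70 FPKM. At 3 d *Smad6* was higher in LPS than in control by 2.13 on the log2 scale (SE 0.37, adjusted p = 0.000698), and by 2.55 without LPS 3 d replicate 3. In RANKL 3 d it was 0.75 above control (SE 0.37, adjusted p = 0.137), with overlapping samples. The call of *Smad6* in RANKL 3 d depended on the samples and the model. Blocking all 15 samples on replicate number, which does not pair LPS 3 d, gave an unadjusted p of 0.0300. Without control replicate 1 the difference was 1.14 with an adjusted p of 0.0378. RANKL 3 d lay below LPS 3 d by 1.37 (SE 0.37, adjusted p = 0.00822), a 2.59-fold difference (-1.79 on the log2 scale without LPS 3 d replicate 3), although RANKL 3 d replicate 1 at 1.89 FPKM lay just above LPS 3 d replicate 3 at 1.87 FPKM.

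*Smad7*, whose product inhibits TGF-beta as well as BMP receptors, followed the same order of groups at its ends. Control samples were at 2.08, 1.08 and 1.54 FPKM and RANKL 4 h samples at 4.48, 4.13 and 4.89 FPKM. LPS 4 h samples were at 1.75, 1.46 and 1.72 FPKM, RANKL 3 d samples at 2.59, 1.56 and 2.0 FPKM, and LPS 3 d samples at 4.61, 4.69 and 2.77 FPKM. RANKL 4 h and LPS 3 d overlapped at the top, and RANKL 3 d, LPS 4 h and control overlapped at the bottom. The mean in RANKL 4 h was 2.88-fold that in control, with 2.16, 3.83 and 3.17 in the same-numbered samples. *Smad7* rose in LPS 3 d by 1.32 on the log2 scale (SE 0.26, adjusted p = 0.00153), and by 1.56 without replicate 3. In RANKL 3 d it was 0.38 above control (SE 0.26, adjusted p = 0.271), a difference called only without control replicate 1 (0.60, unadjusted p = 0.0423). RANKL 3 d lay wholly below LPS 3 d, by 0.93 (SE 0.26, adjusted p = 0.00923), a log2 difference of -1.17 without LPS 3 d replicate 3.

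**Figure D2:**
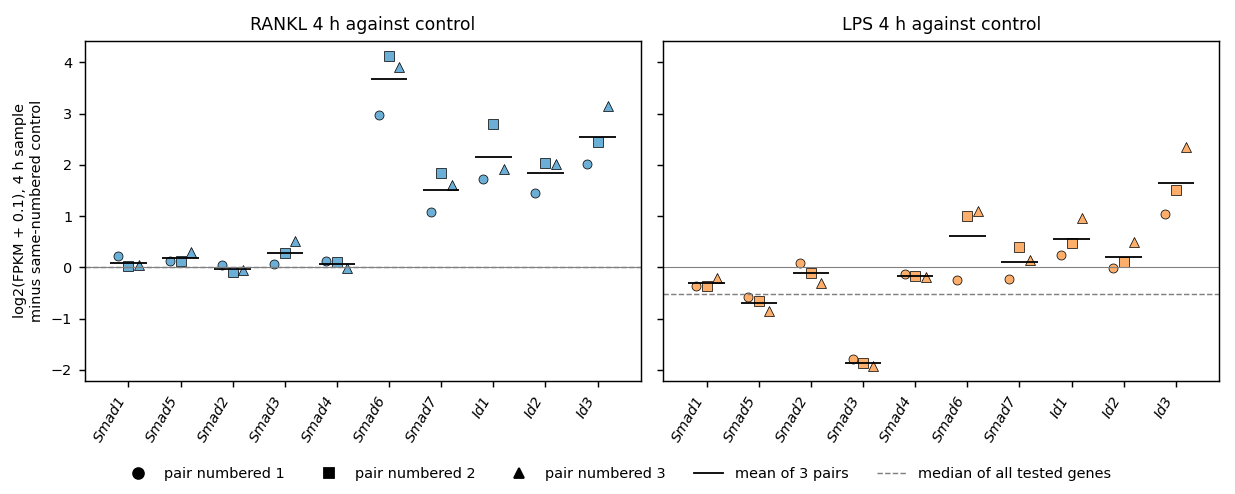
Difference in log2(FPKM + 0.1) of each 4 h sample from its same-numbered control, RANKL on the left and LPS on the right. Points are the 3 pairs, bars their mean and the dashed line the median of all tested genes; in RANKL the 5 inhibitory SMAD and Id genes are above 0 in every pair, and in LPS *Smad3* lies near -1.86 in all 3.

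*Id1*, the Id gene best known as a BMP target, showed opposite sides of control at the times of RANKL. Control samples were at 26.1, 9.22 and 10.6 FPKM, RANKL 4 h samples at 86.9, 64.9 and 40.4 FPKM, and RANKL 3 d samples at 4.17, 2.14 and 3.26 FPKM. LPS 4 h samples were at 30.8, 12.8 and 20.7 FPKM and LPS 3 d samples at 30.4, 28.6 and 9.69 FPKM. RANKL 4 h lay above and RANKL 3 d below every sample of the other groups, while control and both LPS groups overlapped. The mean ratio of RANKL 4 h to control was 4.19, with 3.33, 7.03 and 3.83 in the same-numbered samples, and the mean in RANKL 4 h was 20.1 times that in RANKL 3 d.

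*Id1* fell by 2.11 on the log2 scale in RANKL 3 d against control (SE 0.49, adjusted p = 0.00590), a 4.32-fold drop that was 1.65 on that scale without control replicate 1. Against LPS 3 d it fell by 2.69 (SE 0.49, adjusted p = 0.000592), 6.44-fold, a log2 difference that was -3.22 without LPS 3 d replicate 3. LPS 3 d itself did not pass the test against control, at 0.57 (SE 0.49, adjusted p = 0.385), and passed at 1.11 (adjusted p = 0.0717) without replicate 3. Endothelial cells also express *Id1*: the 9 endothelial markers summed to 14.7 to 26.1 FPKM in control, 13.6 to 24.2 in RANKL 4 h, 3.90 to 12.8 in RANKL 3 d, 10.7 to 22.9 in LPS 4 h and 5.66 to 16.6 in LPS 3 d, with 4 of 7 tested lower in RANKL 3 d and 6 of 7 lower in LPS 3 d. None of the 9 was at 0 in all samples of a group. Granulocyte markers were also lower in both 3 d groups, with 5 of 8 and 8 of 8 lower, and the part of either cell type in the *Id1* level was not tested.

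*Id2*, which is needed for several blood cell lineages and restrains osteoclast formation when overexpressed, was the most abundant member. Control samples were at 132.5, 63.1 and 79.4 FPKM, RANKL 4 h samples at 362, 258.6 and 322 FPKM, and RANKL 3 d samples at 77.0, 51.6 and 46.5 FPKM. LPS 4 h samples were at 131.5, 68.0 and 111.9 FPKM and LPS 3 d samples at 151, 166 and 71.9 FPKM. RANKL 4 h lay above all other samples, and the other 4 groups overlapped their neighbours in order of mean. The mean in RANKL 4 h was 3.43-fold that in control, with 2.73, 4.10 and 4.05 in the same-numbered samples. At 3 d *Id2* was 0.62 lower in RANKL than in control (SE 0.35, adjusted p = 0.192), which was called with the replicate block (unadjusted p = 0.0417). This difference was also called with samples centred on the median gene (-0.835, unadjusted p = 0.0321), without RANKL 3 d replicate 1 (-0.833) and without control replicate 2 (-0.849). It was 0.48 higher in LPS 3 d (SE 0.35, adjusted p = 0.301), and 0.86 higher without replicate 3 (adjusted p = 0.0481) or 0.78 higher without control replicate 1 (adjusted p = 0.120). RANKL 3 d lay below LPS 3 d by 1.10 (SE 0.35, adjusted p = 0.0196), a log2 difference of -1.48 without LPS 3 d replicate 3. The groups overlapped, with RANKL 3 d replicate 1 at 77.0 FPKM above LPS 3 d replicate 3 at 71.9 FPKM.

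*Id3*, the remaining Id gene expressed here, was at 20.03, 12.8 and 6.03 FPKM in control and at 81.3, 70.7 and 54.1 FPKM in RANKL 4 h. LPS 4 h samples were at 41.5, 36.7 and 31.2 FPKM, RANKL 3 d samples at 19.9, 14.9 and 15.7 FPKM, and LPS 3 d samples at 34.7, 34.3 and 26.6 FPKM. *Id3* was the only member wholly above control at 4 h of both stimuli, with a mean 5.30-fold control in RANKL and 2.81-fold in LPS. The pairs gave 4.06, 5.50 and 8.98 in RANKL and 2.07, 2.86 and 5.17 in LPS, the last of each resting on the lowest control sample. *Id3* rose in LPS 3 d by 1.44 on the log2 scale (SE 0.32, adjusted p = 0.00335), and by 1.57 without replicate 3. In RANKL 3 d it was 0.52 above control (SE 0.32, adjusted p = 0.224), or 0.91 without control replicate 1 (adjusted p = 0.0325). RANKL 3 d lay wholly below LPS 3 d, by 0.92 (SE 0.32, adjusted p = 0.0293), a 1.89-fold difference (-1.04 on the log2 scale without LPS 3 d replicate 3).

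Replicate 1 of each group was the highest for *Id1* and *Id3* in 5 of 5 groups and for *Id2* in 4 of 5, while for *Smad6* and *Smad7* it was the highest in 3. In the control, RANKL 4 h, RANKL 3 d and LPS 4 h groups stromal markers were also highest in replicate 1 (478, 506, 2552 and 460 FPKM, against 225 to 304, 275 to 317, 565 to 1157 and 246 to 300 in the others). In LPS 3 d they were lowest in replicate 1, at 211 FPKM against 249 and 773 FPKM in the others. Granulocyte markers too were highest in replicate 1 in all groups but LPS 3 d, where replicate 3 was highest. Stromal markers were higher in RANKL 3 d for 13 of 18 genes, and none was at 0 in all samples of a group. The part of stromal cells or granulocytes in the levels of the Id genes was not tested.

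**Figure D3:**
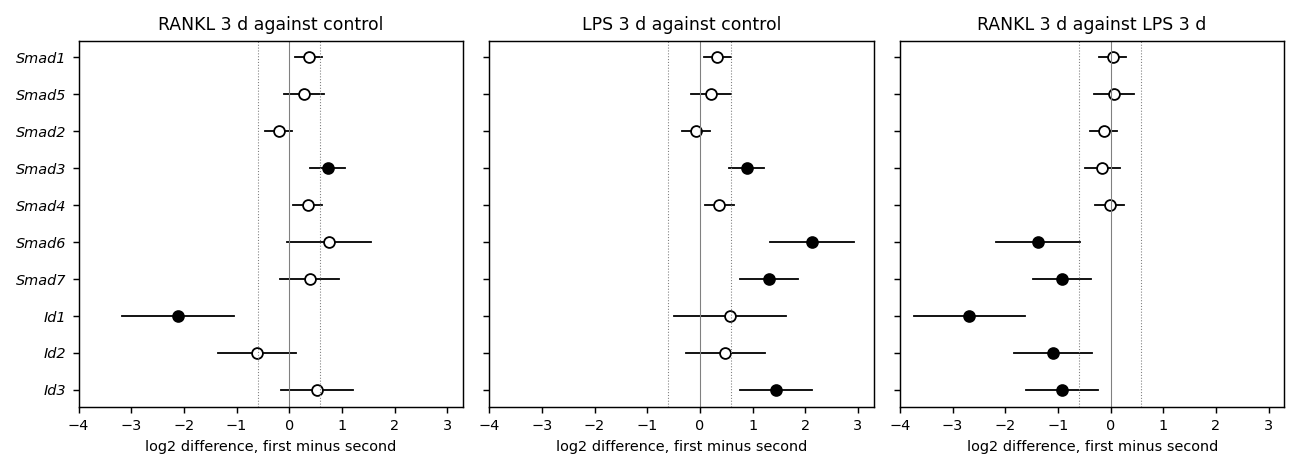
log2 difference in FPKM of the 10 genes for the 3 comparisons at 3 d, with 95% confidence intervals from limma. Filled circles are called genes, dotted lines the fold limits; in RANKL 3 d against LPS 3 d the 5 called genes are all below 0 and the 5 signalling SMAD genes lie near 0.

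The genes of the signalling SMADs varied less. *Smad1*, which carries BMP signals, was at 6.06 to 6.95 FPKM in control, 6.53 to 7.06 in RANKL 4 h, 4.69 to 5.46 in LPS 4 h, 7.60 to 9.03 in RANKL 3 d and 7.50 to 8.70 in LPS 3 d. Both 3 d groups lay wholly above control, yet the differences were under the fold limit, 0.37 on the log2 scale in RANKL (adjusted p = 0.0317) and 0.33 in LPS (adjusted p = 0.0454). The other BMP SMAD gene, *Smad5*, was at 3.04 to 3.54 FPKM in control and fell short of a call in either 3 d group, at 0.28 (adjusted p = 0.235) and 0.21 (adjusted p = 0.370). In LPS 4 h it was at 1.99, 2.11 and 1.90 FPKM, wholly below control by 1.66-fold. Relative to the median gene that difference shrank to 0.14 on the log2 scale. *Smad5* overlaps 3 small annotated genes, so fragments from these could not be told apart from its own.

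*Smad3*, which carries TGF-beta and activin signals, lay wholly below control in LPS 4 h and rose in both 3 d groups. It was at 4.18, 4.41 and 3.42 FPKM in control and at 1.14, 1.13 and 0.830 FPKM in LPS 4 h, a 3.88-fold lower mean with 3.68, 3.90 and 4.12 in the same-numbered samples. Centring on the median gene left it 1.29 lower on the log2 scale. At 3 d the order turned: RANKL samples were at 6.97, 6.59 and 6.44 FPKM and LPS samples at 7.22, 7.15 and 7.96 FPKM, and in each group every sample was above control. *Smad3* rose by 0.73 on the log2 scale in RANKL 3 d (SE 0.15, adjusted p = 0.00331) and by 0.89 in LPS 3 d (SE 0.15, adjusted p = 0.000674), or 0.84 without LPS 3 d replicate 3. Its RANKL 3 d difference fell to 0.51, under the fold limit, when samples were centred. RANKL 4 h samples, at 4.39, 5.35 and 4.94 FPKM, overlapped control. From 4 h to 3 d of LPS the mean of *Smad3* differed 7.21-fold, the widest such difference of the family in LPS.

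*Smad2*, the other TGF-beta SMAD gene, had the narrowest range of the family, at 5.10 to 6.45 FPKM over all samples, with log2 differences of -0.20 in RANKL 3 d (adjusted p = 0.213) and -0.07 in LPS 3 d (adjusted p = 0.664). Its RANKL 3 d samples nevertheless lay wholly below control. The common partner *Smad4* was at 7.31 to 8.45 FPKM in control, 9.5 to 10.7 in RANKL 3 d and 8.42 to 11.3 in LPS 3 d. It was 0.35 (adjusted p = 0.0513) and 0.37 (adjusted p = 0.0367) above control, under the fold limit. An annotated antisense gene overlaps *Smad4*, and how strand was used in counting is not given in the sources used here.

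Between RANKL 3 d and LPS 3 d no signalling SMAD gene was called. The difference in log2 FPKM was 0.04 for *Smad1* (95% interval -0.22 to 0.30), 0.07 for *Smad5* (-0.31 to 0.45), -0.13 for *Smad2* (-0.39 to 0.13), -0.16 for *Smad3* (-0.49 to 0.17), whose RANKL samples lay wholly below the LPS samples, and -0.02 for *Smad4* (-0.29 to 0.25). These intervals lie within the fold limits, while those of *Id1* (-3.74 to -1.63) and *Smad6* (-2.17 to -0.57) lie below 0.

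The summed FPKM of *Smad6* and *Smad7* relative to that of *Smad1*, *Smad2*, *Smad3* and *Smad5* was 0.0751 to 0.175 in control and 0.648 to 0.737 in RANKL 4 h. It was 0.114 to 0.174 in RANKL 3 d, 0.178 to 0.223 in LPS 4 h and 0.195 to 0.362 in LPS 3 d. *Smad6* and *Smad7* were known to stand out in RANKL 4 h when the genes were chosen, so the higher ratio there is no result. The ratio of *Smad3* to *Smad2* was 0.530 to 0.708 in control, 0.160 to 0.194 in LPS 4 h, 1.17 to 1.29 in RANKL 3 d and 1.13 to 1.51 in LPS 3 d. At 3 d *Smad3* thus exceeded *Smad2* in all 6 samples and in no control sample. *Id2* made up 57.8% to 82.7% of the summed FPKM of the Id genes.

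Over the 15 samples the log2 levels of *Smad6* and *Smad7* had a Pearson r of 0.94 and those of *Id1* and *Id2* 0.92, and *Smad6* had 0.86 with *Id2* and 0.83 with *Id3*. Among the signalling genes r was 0.91 for *Smad1* with *Smad4* and 0.90 for *Smad5* with *Smad3*, but for *Smad2* it was -0.23 with *Smad1*, -0.0079 with *Smad3*, -0.09 with *Smad4* and 0.15 with *Smad5*, while *Smad3* had 0.33 with *Smad6*. The points share groups and replicate numbers, so these values mix differences between groups with spread within groups and are descriptive only. *Smad3* and *Smad6* lie on the same strand of chromosome 9, at chr9:63646767-63757994 and chr9:63953076-64022059 (GENCODE M21, GRCm38), 195 kb apart. The levels of these neighbours differed in pattern: *Smad6* was highest in RANKL 4 h and *Smad3* in LPS 3 d.

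Of the 9486 genes averaging 1 FPKM or more, the gene closest to *Smad6* was *Smad7*, followed by *Id2*, *Cyth1* (r = 0.83), *Id3* and *Akirin1* (0.82), and the closest to *Smad7* after *Smad6* were *Inafm1* (0.84) and *Tmco4* (0.83). *Id1* was closest to *Slc9a3r1* (0.94), *Id2* and *Rilpl2* (0.91), *Id2* to *Id1* and *Sgk1* (0.91), and *Id3* to *Tgm2* (0.85). The RANKL 4 h samples, whose levels of *Smad6* and *Smad7* were known when the genes were chosen, enter these correlations, so nearness of members to each other is no result.

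The relatives *Smad9*, a BMP SMAD gene, and *Id4* were close to absent. *Smad9* reached 0.00765 to 0.151 FPKM (1 to 18 fragments) and failed the filter, and *Id4* reached at most 0.339 FPKM (0 to 11 fragments) and was called in no comparison.

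The wider pathway was described from lists of its other genes. At 4 h of RANKL, 8 of 19 intracellular regulators lay wholly above control and none below, where the background is 6.05% and 4.71%. They included the SMAD corepressor genes *Skil* (17.7, 21.8 and 22.7 FPKM against 9.56, 7.26 and 7.31 in control, a 2.58-fold mean) and *Tgif1* (32.5, 27.9 and 30.6 against 22.3, 19.3 and 20.9), and *Smurf1*, which encodes a ubiquitin ligase that acts with SMAD6 and SMAD7 on receptors (8.76, 8.05 and 8.11 against 6.47, 6.61 and 6.85). None of 10 tested ligands lay wholly on either side of control. Of the receptors, 2 of 11 lay above and 1 below, and of 14 other target genes only *Junb* lay above (76.9, 71.8 and 62.5 FPKM against 56.8, 42.0 and 40.3). Among extracellular regulators 2 of 13 lay above and 1 below. In LPS 4 h, 3 of 19 intracellular regulators lay above and 7 below, 3 of 11 receptors on each side, and 5 of 14 other targets above and 3 below, where 10.6% of all tested genes lay above and 56.2% below. The lists were chosen with earlier results of these data known, and no list was tested as a set, so nothing particular to a list is read from these counts. The genes named for 4 h were picked after their values were seen.

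The counts of called genes in each list at 3 d stand beside shares over all tested genes of 20.2% higher and 9.04% lower in RANKL 3 d against control, 14.9% and 16.1% in LPS 3 d against control, and 25.1% and 13.8% in RANKL 3 d against LPS 3 d. No list was tested as a set, and nothing particular to a list is read from its count. The receptor list had 5 of 11 higher and 1 lower in RANKL than in control, and 4 higher and none lower in LPS. *Tgfbr1* and *Tgfbr2*, the TGF-beta receptor genes, were higher in RANKL 3 d than in LPS 3 d by 1.25 (SE 0.23, adjusted p = 0.000643) and 1.0 (SE 0.17, adjusted p = 0.000286) on the log2 scale. *Acvrl1* and *Eng*, a type I receptor and a co-receptor through which BMP ligands signal to SMAD1 and SMAD5, were lower by 0.78 (SE 0.20, adjusted p = 0.00553) and 1.13 (SE 0.14, adjusted p = 3.24e-05). In that comparison 3 of 11 receptors were higher and 2 lower, so the list as a whole took no single direction.

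Among ligands, 2 of 10 were higher and 1 lower in RANKL 3 d, 2 higher and 3 lower in LPS 3 d, and 4 higher and 2 lower in RANKL 3 d against LPS 3 d. *Inhba*, which encodes the activin A subunit, was at 6.83 to 16.5 FPKM in LPS 3 d and 0.768 to 1.39 in control, 3.14 higher on the log2 scale (adjusted p = 0.000777). *Gdf15*, a stress-induced member of the ligand family, was at 60.2 to 81.6 FPKM in control and 5.93 to 8.60 in RANKL 3 d, a log2 difference of -3.41 (adjusted p = 6.99e-07). *Tgfb2* (1.83, adjusted p = 0.0224) and *Tgfb3* (1.56, adjusted p = 0.00835) rose in RANKL 3 d. Both were highest in replicate 1, the sample with the most stromal marker RNA, at 5.78 FPKM of *Tgfb2* (1.96 and 1.21 in the others) and 13.5 FPKM of *Tgfb3* (5.98 and 4.67), and the part of stromal cells in these levels was not tested.

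Of 13 extracellular regulators, 4 were higher and 1 lower in RANKL 3 d, 3 and 1 in LPS 3 d, and 3 and 2 between them. *Bambi*, a decoy receptor gene, fell in RANKL 3 d by 0.64 (adjusted p = 0.0110) and in LPS 3 d by 0.97 (adjusted p = 0.000674). *Ltbp3*, whose product binds latent TGF-beta, rose in RANKL 3 d by 1.58 (adjusted p = 0.000393). *Thbs1*, whose product activates latent TGF-beta, and *Grem1*, a secreted BMP antagonist gene, rose in LPS 3 d by 1.80 (adjusted p = 0.00519) and 1.49 (adjusted p = 0.00214). In LPS 3 d replicates 1 to 3 *Thbs1* was at 737, 642 and 983 FPKM and *Grem1* at 8.33, 14.5 and 13.2 FPKM. Replicate 3 held the most stromal marker RNA of that group, and the part of stromal cells in these levels was not tested.

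Of 19 intracellular regulators, 5 were higher and 1 lower in RANKL 3 d, 4 and 1 in LPS 3 d, and 3 and 3 between them. *Smurf1* rose in RANKL 3 d by 1.04 (adjusted p = 0.000211). *Tgif1* fell in RANKL 3 d by 0.76 (adjusted p = 0.0346) and rose in LPS 3 d by 0.95 (adjusted p = 0.0106), and between them it differed by -1.71 (adjusted p = 0.000109). *Skil* rose in LPS 3 d by 1.30 (adjusted p = 0.000919), and *Ctdsp2*, a phosphatase gene, was higher in RANKL 3 d than in LPS 3 d by 1.09 (adjusted p = 0.000198).

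The E-protein partners of the Id proteins were measured with them. *Tcf4* was at 3.76 to 4.85 FPKM in RANKL 3 d, 2.31 to 2.63 in control and 1.78 to 2.41 in LPS 3 d. It rose in RANKL 3 d against control by 0.73 (SE 0.19, adjusted p = 0.0103) and against LPS 3 d by 1.0 (SE 0.19, adjusted p = 0.000684). At 4 h *Tcf4* lay wholly below control in RANKL, at 1.61, 2.21 and 1.75 FPKM, and wholly above it in LPS, at 3.44, 4.71 and 4.84 FPKM. The other partners, *Tcf3* and *Tcf12*, lay wholly below control in LPS 4 h, by 2.45-fold and 2.26-fold, and overlapped it in RANKL 4 h. Of all tested genes, 4.71% lay wholly below control in RANKL 4 h, and 10.6% wholly above and 56.2% wholly below it in LPS 4 h. The median tested gene was 0.52 lower on the log2 scale in LPS 4 h. *Tcf4* was 1 of 3 partners called in RANKL 3 d, and none of the 3 was called in LPS 3 d against control.

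Of the other target genes, 6 of 14 were higher and 1 lower in RANKL 3 d, 5 and 1 in LPS 3 d, and 2 and 1 between them. *Cdkn2b*, a cell cycle inhibitor gene induced by TGF-beta, was at 2.2 to 3.09 FPKM in RANKL 3 d, 0.370 to 0.401 in control and 0.488 to 0.877 in LPS 3 d, and was 1.79 higher in RANKL 3 d than in LPS 3 d (adjusted p = 0.000198). *Cdkn1a*, another cell cycle inhibitor gene, fell in RANKL 3 d by 1.35 (adjusted p = 0.00793). *Col1a2*, higher in RANKL 3 d by 2.2 (adjusted p = 0.0208), is also on the stromal marker list, and the part of stromal cells in its level was not tested.

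**Figure D4:**
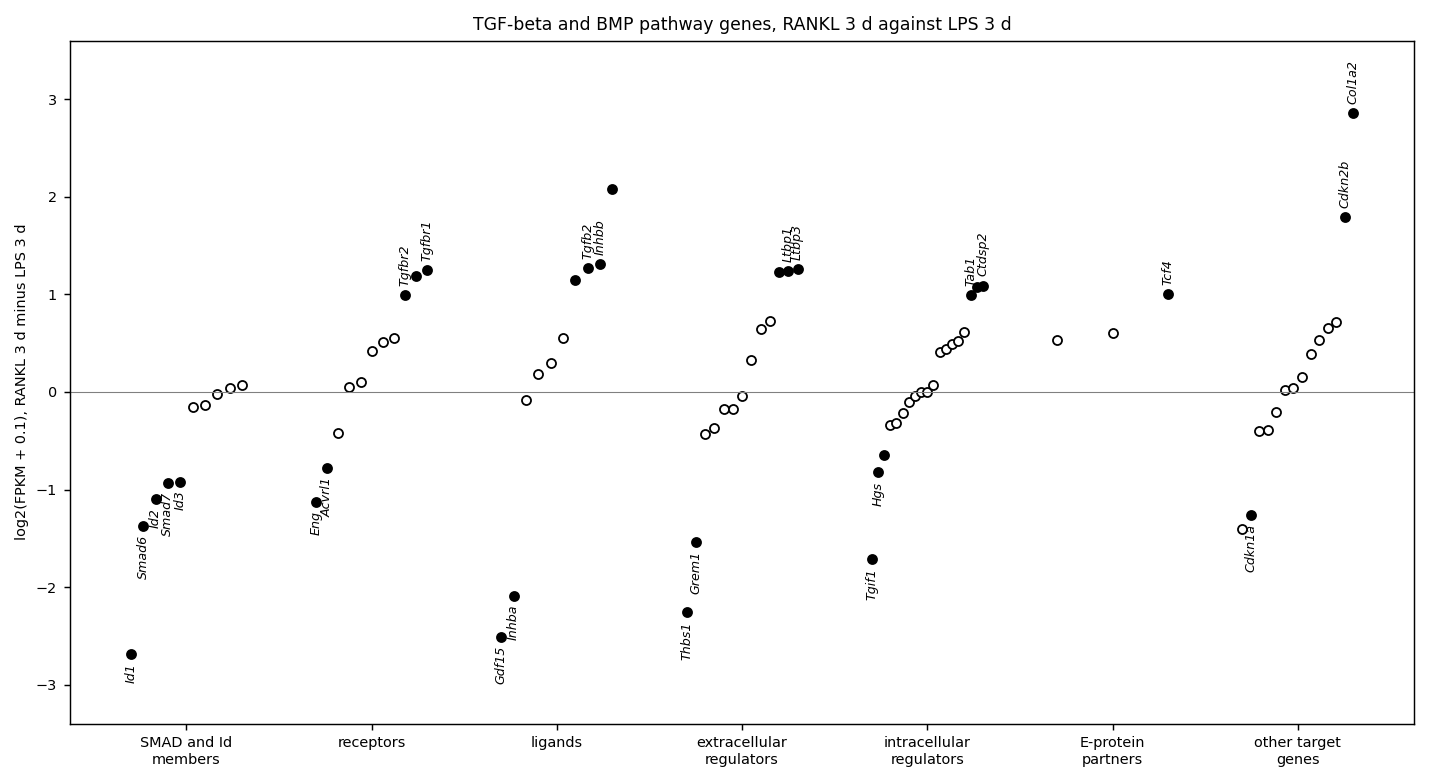
log2 difference between RANKL 3 d and LPS 3 d for the 10 members and the tested genes of 6 pathway lists, sorted within each list. Filled circles are called genes; the called members are all lower in RANKL 3 d, while the receptor, ligand and regulator lists hold called genes on both sides of 0.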

How the data were processed

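RNA-seq libraries of 15 mouse BMDM samples, in 5 groups of 3 taken from the labels, were made from total RNA with a SMARTER mRNA-seq kit. The authors deposited FPKM per gene, estimated with StringTie and Ballgown, and the labels name builds GRCm38.p4 and mm10. The aligner and any use of strand in counting are not given in the sources used here. The last entry of the table was incomplete (1 entry), and genes that follow it alphabetically were not analysed here.

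The members and gene lists were chosen with earlier results of these data known. For the 14485 genes above 0 in at least 3 samples, FPKM values were whole multiples of 1 fragment within 0.01 fragments (100% of values), which gave the fragment counts. These counts set the counting error and were the input of the added limma voom fits, and did not enter the main test. Linear models on log2(FPKM + 0.1) were fitted in R 4.3.3 with limma 3.58.1 (trended eBayes) over all 15 samples, without a block, for the 11743 genes that averaged 0.1 FPKM or more. The main test was chosen for the deposited unit, FPKM, and the edgeR test of the study was not run. A gene was called at a fold above 1.5 or below 0.66 with an unadjusted p under 0.05, and Benjamini-Hochberg adjusted p-values are over all tested genes. Fold changes on this scale understate those of low genes. The script was tested on simulated data with known changes.

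Same-numbered samples deviated together (r over 9486 genes) at 0.707 to 0.842 between control and RANKL 4 h, 0.440 to 0.624 between control and LPS 4 h and 0.136 to 0.318 between control and RANKL 3 d, so the numbers pair these groups. They do not pair LPS 3 d (-0.0299 to 0.184 with control, -0.229 to -0.0214 with RANKL 3 d). The replicate block was fitted over all 15 samples, LPS 3 d among them, so it is not right for that group. The main fit leaves the pairing of the other groups out. At most 4 called genes averaging 1 FPKM or more were eligible to be named per pathway list and comparison, by size of change, and all members are named. A gene that met this rule is not reported here. The *Skil*, *Tgif1*, *Smurf1* and *Junb* values at 4 h were picked after their values were seen. Alternatives were the pseudocount, the filter, scaling, the block, the groups in the fit, the trend, adjusted p in the call, and leaving out each sample. After seeing the data, fits without samples numbered 1 and limma voom on the fragments were added.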

Additional observations from a re-analysis of the deposited data

Results flagged for a closer look

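*Id1* in RANKL was on opposite sides of control at the times measured, with all 3 samples above all 3 controls at 4 h (2.15 on the log2 scale) and all below at 3 d (-2.11), a change of -4.27 between times. Of all tested genes, 242 (2.06%) had opposite wholly separate sides in RANKL. *Smad3* in LPS went from -1.86 at 4 h to 0.89 at 3 d, a change of 2.75, and *Smad1* in LPS from -0.31 to 0.33, a change of 0.64, where 1629 genes (13.9%) had opposite sides in LPS. The 4 h side of *Smad1* turned when samples were centred on the median gene. The difference between times was not tested for any of these 3, since the 4 h values were known when the genes were chosen, and both times share the control samples.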

How the results depend on the processing

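In RANKL 3 d against LPS 3 d, the 180 alternative values of the 10 members stayed on their side of the call, and the 5 called members were lower in every fit. In LPS 3 d against control 177 of 180 did, the others being *Id1* and *Id2* without LPS 3 d replicate 3 and *Id2* without control replicate 1. In RANKL 3 d against control 166 of 180 did, and 13 gained and 1 lost a call. There, the members higher (1 in the report) numbered 0 with centred samples, 3 with FPKM rescaled to equal sums, 2 with the replicate block and 3 with no sample numbered 1, and the members lower (1) numbered 2 with centred samples and 2 with the block. Over all genes 1488 were higher and 1668 lower with centred samples, against 2369 and 1062. In RANKL 3 d against LPS 3 d centring gave 2433 higher and 2147 lower against 2951 and 1615, and in LPS 3 d against control 1390 and 2126 against 1755 and 1885, where the share of higher calls moved by under 10 percentage points. With centring, 8 members lay wholly above control in RANKL 4 h and 5 in LPS 4 h, and *Smad1* in LPS 4 h reversed to 0.253.

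Leaving out 1 sample at a time gave 1 to 4 members higher and 1 to 2 lower in RANKL 3 d against control. The 4 came without control replicate 1 (*Smad3*, *Smad6*, *Smad7* and *Id3*), and 2 were lower without RANKL 3 d replicate 1 or control replicate 2. It gave 5 to 7 members above and 0 to 1 below control in RANKL 4 h, and 1 to 3 above and 3 to 5 below in LPS 4 h. Without 1 sample of a group, the fit uses the spread shared with the other groups. The replicate block changed no other member's call. limma voom on the fragments called the same number of members in each comparison (1 higher and 1 lower, 4 and 0, 0 and 5) and 2483 and 1041, 1786 and 1885, and 2962 and 1584 genes. The cause of these changes was not tested. Low levels, such as 32 to 83 fragments of *Smad6* in control, limit the precision of ratios.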
